A study of Ovis aries with 16 samples.

Results

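The effect of postnatal overfeeding on the heart was examined in female sheep that had not been exposed to bisphenol A before birth, as 4 overfed animals (obese) against 4 animals on a control ration (control). These 8 libraries were chosen by their labels from the 16 of the series. The mothers of both groups had received corn oil, the vehicle of the bisphenol A injections given to the ewes of the other groups. From 14 weeks of age the daughters were fed 1.4 lb corn, 0.03 lb supplement and 1.4 lb hay per day (control), or 1.7 lb corn, 0.03 lb supplement and 1.6 lb hay at first and then without limit (obese). Heart muscle (myocardium) was taken from randomly chosen animals at 21 months of age, after prostaglandin injections that synchronised the ovarian cycle. Its poly-A RNA was sequenced, with 1 library per animal, numbered 0 to 3 in each group. The remaining 8 animals were born to ewes given bisphenol A at 0.5 mg/kg per day from day 30 to day 90 of gestation and had the control ration (BPA) or the overfed one (ObBPA). They entered the fit as groups of their own and serve here to ask whether the overfeeding effect differed with prenatal exposure. The labels do not say which heart chamber was sampled, nor how far the weights of the animals differed.

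The adult heart draws most of its energy from fatty acids, which cardiomyocytes take up and oxidise in densely packed mitochondria. Overnutrition raises the supply of lipid to the heart, and nuclear receptors of the PPAR family are known to respond to fatty acids by inducing genes of lipid uptake and oxidation. Lasting obesity is also known to be accompanied by enlarged hearts, interstitial fibrosis and fat deposits around the heart. These programmes could not be examined by name: the features carry Ensembl sheep gene IDs that the table does not pair with symbols, and 0 of the 27054 IDs matched the gene table at hand. The labelled tissue could for the same reason not be checked against cardiomyocyte markers, nor the groups against markers of fat, blood vessel or immune cells. Features are therefore described by ID, level and pattern over the animals.

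Levels are FPKM, fragments scaled by the length of the transcript and by the number of mapped fragments. A feature was tested when it reached an FPKM of 1 in at least 4 of the 8 control and obese libraries, as did 12701. Differences are obese minus control on the log2(FPKM + 1) scale, on which changes of weakly expressed features look smaller than they are. Features at an FPKM of 1 or more numbered 12584 ± 241 in control and 12643 ± 105 in obese hearts (mean ± SD, n = 4, exact two-sided permutation p = 0.743 and 0.8286 after adjustment over 3 such library measures; the smallest p possible is 0.0286). Absolute depth is unknown, and any scaling between libraries, which is not given, would be part of the relative depth. Relative to control library 3, the depth read from the value of 1 fragment was 0.540 in control library 1, 0.901 in control library 2, and 0.883, 1.25 and 0.859 in obese libraries 1 to 3. The libraries numbered 0 had no such common step with control library 3: its most frequent value held 0.743% of the features compared in control library 0 and 0.724% in obese library 0, against 10.3% to 13.6% in the other libraries of these groups.

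Control library 1 and the libraries numbered 0 stood apart before any contrast was made. Control library 1 was the library farthest from the median of the 8 in 49.6% of tested features, control library 0 in 18.9% and obese library 0 in 11.4%, against 2.97% to 5.87% in each of the other 5. Pairs of libraries correlated on the log2(FPKM + 1) scale with a median of 0.939 within control (6 pairs), 0.954 within obese (6 pairs) and 0.950 between the groups (16 pairs). Without control library 1 and the libraries numbered 0, the correlations between groups lay between 0.952 and 0.965 (6 pairs), those within obese between 0.955 and 0.967 (3 pairs), and the only pair within control was at 0.956. The counts of features by p, their direction, the differences by level, the overlap of the groups and their spread are therefore given below with and without these libraries; the counts of zeros and of large differences, the interaction and the comparison with exposed animals are given with all libraries.

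No feature was called between obese and control hearts at a false discovery rate of 0.05 (0 of 12701, or 0%) by limma, and the smallest adjusted p was 0.538. Differences were small over the transcriptome: the median was -0.0099, the quartiles were -0.13 and 0.12, and the median SE of a difference was 0.156. At an unadjusted p under 0.05 there were 561 features, 4.42% of those tested, where evenly distributed p-values would give 5% or 635. The share was on either side of 5% depending on the setting: 2.86% without control library 1 and 2.23% with the control and obese libraries alone, but 5.24% after median-of-ratios scaling, 6.93% with a term for the libraries numbered 0, 7.73% without them, 6.77% without them and control library 1, 11.9% without control library 0 and 13.2% with library weights. Of the 561, 316 (2.49%) were higher in obese hearts, with a median difference of 0.34, and 245 (1.93%) were lower, with a median of -0.42. The 95% interval excluded a change of 2-fold or more in FPKM + 1, up or down, for 93.5% of features (90.1% without the libraries numbered 0, 93.6% without control library 1), which bounds the change in FPKM itself only for features well above 1. In RNA of whole tissue, fewer cells of a type and less RNA per cell cannot be told apart. The labels do not give litters, so the p-values measure the spread between these animals. That spread was pooled over all 16 libraries, including the exposed groups, whose median SD (0.162 and 0.161) was below that of control (0.301). With the control and obese libraries alone, the median SE was 0.176. The interval then excluded a change of 2-fold or more for 92.2% of features.

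**Figure D1:**
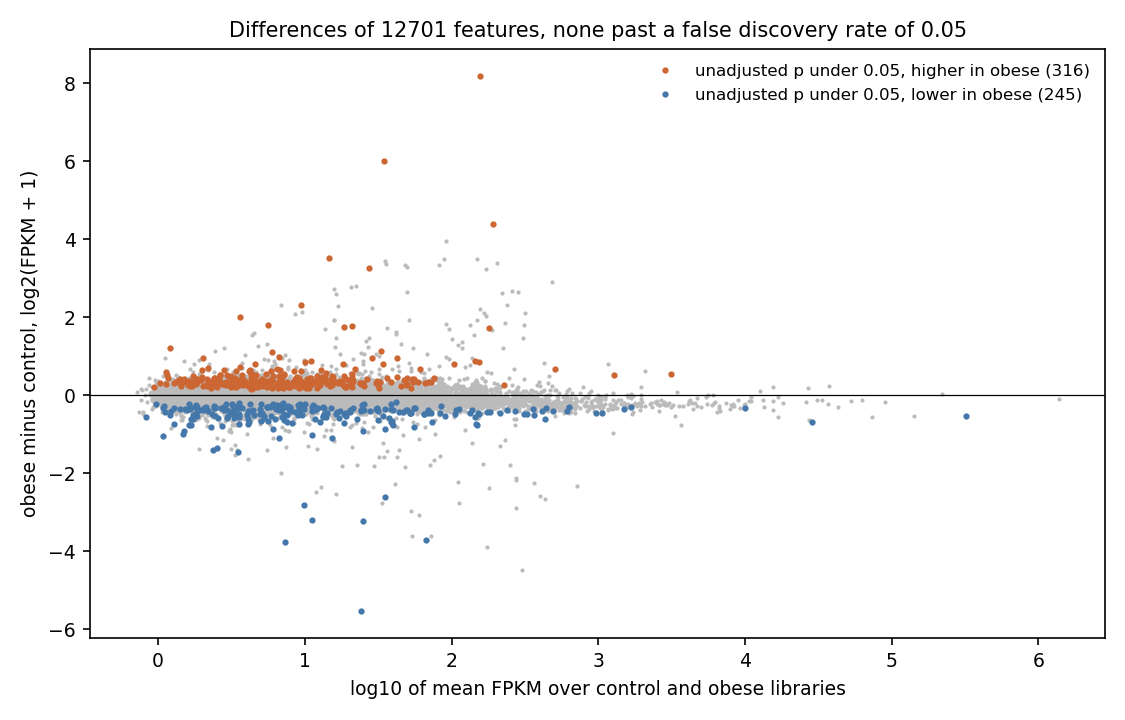
Difference between obese and control hearts (vertical axis, log2(FPKM + 1)) against the mean FPKM of the 8 libraries (horizontal axis, log10) for each of the 12701 tested features, with 1 point per feature. Coloured points have an unadjusted p under 0.05 by limma, 316 above and 245 below the line at 0; none passed a false discovery rate of 0.05.

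ENSOARG00000022720 led the features that were higher in obese hearts when ranked by p. Its FPKM was 81.8, 47.4, 113 and 102 in control libraries 0 to 3, and 215, 288, 306 and 296 in obese libraries 0 to 3. Every obese library was above every control library, the lowest obese value being that of library 0 and the lowest control value that of library 1. The means were 86.1 ± 28.9 and 276 ± 41.5 (SD, n = 4), a 3.21-fold ratio of means, and the log2 difference was 1.73 ± 0.302 (SE) with a 95% interval of 1.09 to 2.37. The adjusted p by limma was 0.538 and ranged from 0.0525 to 0.951 over 28 alternative settings, under which the log2 difference kept its sign between 1.46 and 1.88. Animals exposed to bisphenol A before birth had group means between these: 126, 223, 157 and 131 on the control ration and 140, 259, 110 and 237 when overfed. There the overfed and control-fed libraries overlapped, and the log2 difference of ObBPA minus BPA was 0.18 ± 0.302 (SE).

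ENSOARG00000001110, a feature of low level, was the next among those higher. Its FPKM was 1.92, 2.64, 1.53 and 1.76 in the control libraries and 3.26, 2.93, 4.95 and 3.54 in the obese libraries. The groups did not overlap, but obese library 1 was only slightly above control library 1. The means were 1.96 ± 0.479 and 3.67 ± 0.888 (SD, n = 4), with a log2 difference of 0.65 ± 0.132 (SE). The adjusted p was 0.692 by limma and ranged from 0.0455 to 0.983 over 28 alternatives. The feature was called under 1 of them, which weighted libraries by their residual spread. In prenatally exposed hearts it had 2.44, 3.03, 2.63 and 2.96 on the control ration and 3.31, 3.51, 3.06 and 2.95 with overfeeding, which overlapped narrowly.

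Among the features lower in obese hearts, ENSOARG00000025092 had the smallest p. Its FPKM was 9.66, 31.4, 9.38 and 8.46 in control libraries 0 to 3, and each of the 4 obese libraries listed it at 0. The control value of library 1 was far above the other control values. Because a 0 in an FPKM table may also stand for an estimate that failed, no fold change is given. BPA hearts had 36.5, 0, 13.0 and 14.5 and ObBPA hearts 10.1, 23.4, 18.2 and 23.5, so that of the 16 libraries a listing at 0 occurred in the 4 obese libraries and in BPA library 1. The adjusted p for obese against control was 0.692 by limma. It was 0.00252 without BPA library 1 and 0.00712 when only the control and obese libraries were fitted, with a range of 0.00252 to 1 over 27 alternatives. It passed the filter only through the control group, so these p-values do not support a difference.

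ENSOARG00000017345 followed, with an FPKM of 3.29, 1.71, 2.29 and 1.81 in the control libraries and 0.971, 0.577, 0.936 and 0.421 in the obese libraries. Every obese library was under an FPKM of 1 and every control library above it, so the feature passed the filter only through the control group, where it was high, and had to differ in this way. Control hearts averaged 2.28 ± 0.722 and obese hearts 0.726 ± 0.270 (SD, n = 4). On the log2 scale they differed by -0.91 ± 0.192 (SE). The adjusted p by limma was 0.692, in a range of 0.109 to 0.983 over 27 alternatives. The exposed animals had 0.399, 1.15, 1.67 and 0.762 on the control ration and 1.20, 1.22, 0.782 and 1.10 with overfeeding. These groups overlapped, and all 8 of their values lay below the 4 of the control hearts. Features picked by their small p are likely to show groups that do not overlap, so the lack of overlap in these 4 features adds nothing to the p-values.

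**Figure D2:**
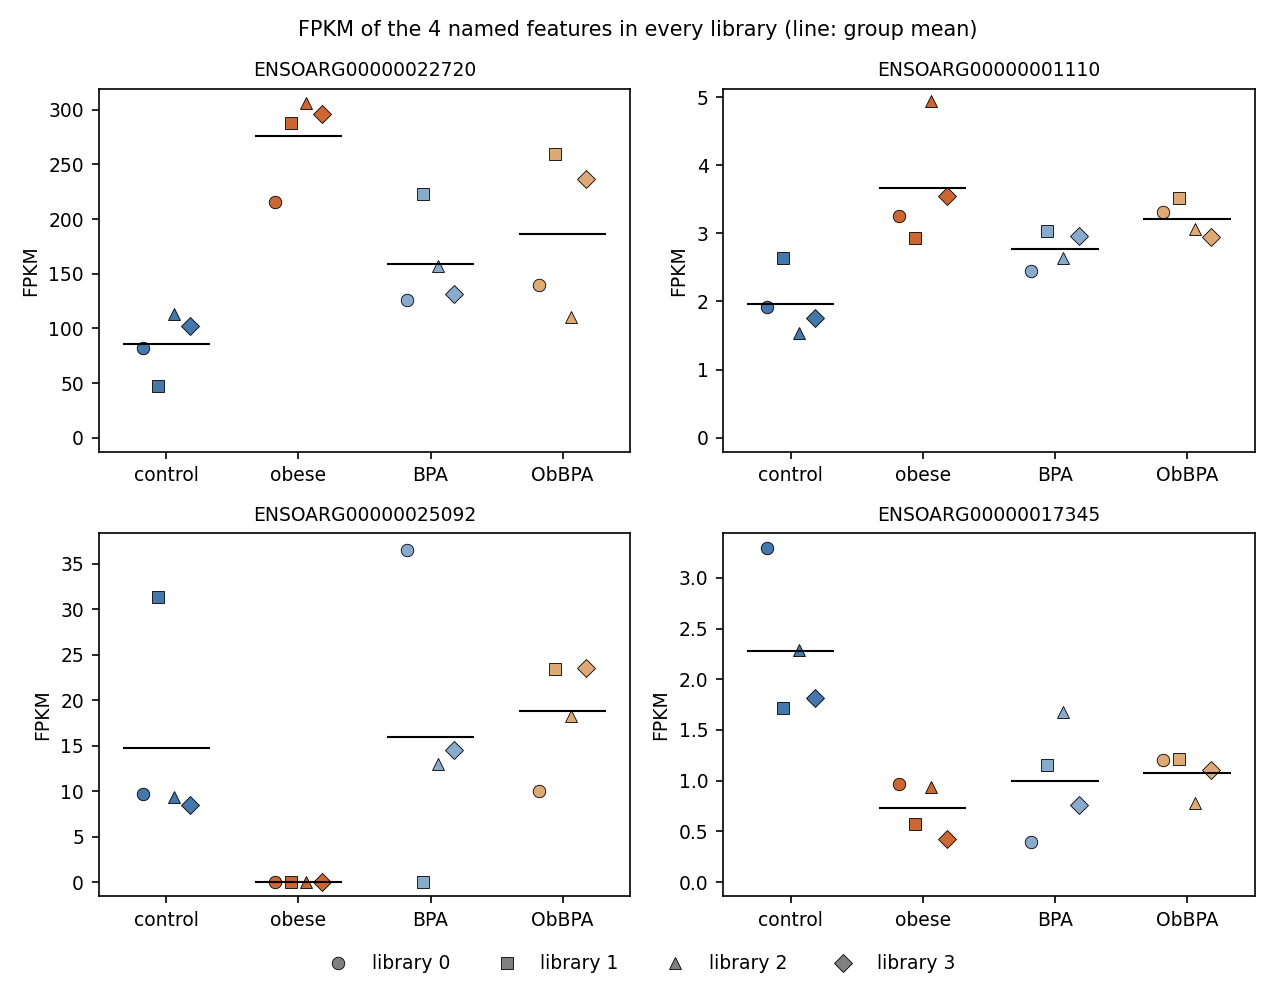
FPKM (vertical axes) of the 2 leading features by p on each side, in all 16 libraries by group; symbols give the library number and lines the group means. In ENSOARG00000022720 the 4 obese libraries, at 215 to 306, lie above the 4 control libraries at 47.4 to 113, and ENSOARG00000025092 is listed at 0 in all 4 obese libraries.

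Over all tested features, the 4 obese and 4 control libraries did not overlap in 243 (1.91%), with obese higher in 152 (1.2%) and lower in 91 (0.716%). Among all orderings of 4 and 4 libraries, a share of 0.0286 is without overlap, which is above the share seen with all 8 libraries. Of the 561 features with an unadjusted p under 0.05, 160 were among those whose groups did not overlap. Without control library 1 the number was 448 of 12701 (3.53%), and without the libraries numbered 0 it was 1661 (13.1%), 831 higher and 830 lower. Without all of these it was 3024 (23.8%), 1579 higher and 1445 lower. These numbers cannot be set against the 243 or the share of 0.0286, since fewer libraries overlap less often. The share of orderings without overlap was not worked out for the smaller sets, so the comparison with it covers all 8 libraries only.

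Large differences were mostly those of features listed at 0 in some library. A log2 difference of at least 1 in size was found in 159 features, 85 higher and 74 lower in obese hearts, and 141 of them were listed at 0 in at least 1 of the 8 libraries. An unadjusted p under 0.05 was found for 28 of the 159 (17.6%, against 4.42% of all tested features), 14 in each direction. Of the 18 that were above 0 in every library, 6 were higher and 12 lower, 5 had groups that did not overlap (1.91% of all features did not), and in 9 control library 1 was the library farthest from the median, as in 49.6% of all features. The 159, and the 18 among them, were picked by the size of this same difference. Their larger shares of small p and of groups without overlap are therefore fixed in part by the choice.

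A listing at 0 was about as frequent in both groups. Among the tested features 307 were listed at 0 in at least 1 of the 8 libraries: 76 in control libraries alone, 53 in obese libraries alone and 178 in both. By library the number ran from 60 to 145 in control, the highest in library 1, and from 45 to 133 in obese, the highest in library 0. A complete switch was seen in 4 features, 2 listed at 0 in all control and above 0 in all obese libraries and 2 the reverse. Such features can pass the filter only through the group in which all 4 libraries are high, so their difference was part of how they were chosen and their p-values are no support for it. ENSOARG00000025092 is 1 of them. ENSOARG00000023569 was at 0 throughout the obese libraries, against 33.9, 57.8, 69.1 and 31.2 in control. Its values in the exposed groups were 0, 0, 47.9 and 88.9 (BPA) and 34.1, 0, 33.6 and 28.9 (ObBPA). ENSOARG00000023788 was at 0 throughout the control libraries and had 371, 235, 167 and 484 in the obese libraries, with 0, 260, 1601 and 238 in BPA and 0, 0, 449 and 193 in ObBPA hearts. ENSOARG00000024105 was likewise at 0 in control and had 54.4, 46.2, 131 and 47.5 in obese hearts, with 51.1 in BPA library 1, 88.1 and 38.0 in ObBPA libraries 2 and 3, and 0 in the other exposed libraries. All 4 thus also varied between 0 and high values within an exposed group. They were the 4 features called when only the control and obese libraries were fitted, where their spread in the exposed groups did not count; with all 16 libraries the adjusted p of ENSOARG00000023569, ENSOARG00000023788 and ENSOARG00000024105 was 0.831 by limma, with a range of 6.45e-06 to 1 over their alternatives. These 3 IDs, and the 5 in the next paragraph, were chosen after their values were seen.

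Features above 0 in all 8 libraries were called under 2 settings. Without control library 3, limma called ENSOARG00000012112, which had an FPKM of 3.26, 2.14, 1.92 and 7.48 in control libraries 0 to 3 and 8.78, 8.45, 7.83 and 8.02 in obese libraries 0 to 3. Its adjusted p was 0.00484 there and 0.831 with all libraries, in a range of 0.00484 to 1 over 28 alternatives. Control library 3, the library left out, was the control value nearest to the obese ones, and BPA and ObBPA libraries ran from 2.88 to 5.15. With weights estimated from the residual spread, 5 features were called: ENSOARG00000001110, and ENSOARG00000011367, ENSOARG00000011382, ENSOARG00000012717 (higher) and ENSOARG00000002923 (lower), with adjusted p-values of 0.0455 to 0.0491 by limma, against 0.831 for the last 4 without weights and a range of 0.0455 to 1 over their alternatives. Control library 3 then had a weight of 4.09, against 0.305, 0.109 and 0.888 in control libraries 0, 1 and 2. ENSOARG00000012717 had 52.7, 62.6, 61.1 and 57.4 in the control libraries and 74.7, 73.5, 71.0 and 73.8 in the obese libraries, without overlap and with an SD of 1.60 among the obese animals. BPA hearts, on the control ration, had 67.4, 74.3, 67.1 and 70.8, also above every control library, and ObBPA hearts had 83.3, 76.8, 82.8 and 80.3. ENSOARG00000011367 had 35.2, 15.0, 29.2 and 21.8 in control and 31.7, 43.8, 49.9 and 46.7 in obese hearts, where control library 0 exceeded obese library 0. In ENSOARG00000011382 and ENSOARG00000002923 the groups overlapped through control library 1, the control value farthest from the others in both.

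The direction of the differences depended on which libraries were used. With all libraries, 56.3% of the 561 features with an unadjusted p under 0.05 were higher in obese hearts. After median-of-ratios scaling between libraries the share was 44.7%, with 297 higher and 368 lower. It was 44.6% without the 4 libraries numbered 0 (438 higher, 544 lower), 59.0% without control library 1 (214 higher, 149 lower) and 51.5% without all of these (443 higher, 417 lower). Single libraries moved the number or the split: without control library 0 there were 514 higher and 992 lower features, and without control library 2 there were 799 higher and 335 lower. Without obese library 0 there were 412 higher and 179 lower. Without obese library 3 there were 364 in all, 179 higher and 185 lower. No feature was called without the libraries numbered 0, without control library 1 or without all of these, and the smallest adjusted p was then 0.573, 0.383 and 0.0744 by limma.

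**Figure D3:**
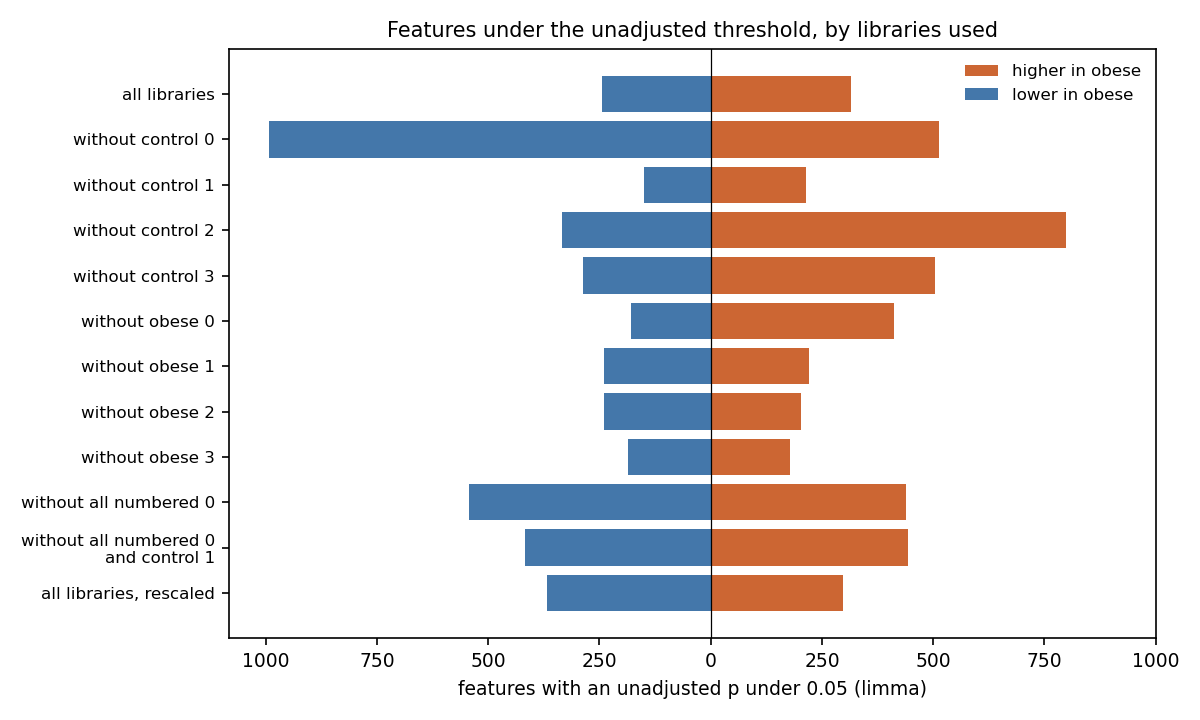
Number of features with an unadjusted p under 0.05 by limma (horizontal axis), higher in obese hearts to the right and lower to the left, with all libraries, without each control or obese library, without the libraries that stand apart, and after median-of-ratios scaling. The counts run from 363 without control library 1 to 1506 without control library 0, and the longer side changes with the library left out.

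Few of the 561 features were under the unadjusted threshold in each of these sets of libraries. With the same direction, 356 of the 561 were also under it without the libraries numbered 0, 205 without control library 1 and 222 without all of these. A total of 107, or 19.1%, were under it in all 4 sets, 66 higher with a median difference of 0.36 and 41 lower with a median of -0.46. These sets share most of their libraries. Of all 12701 features, 11.0% had a difference of the other sign without the libraries numbered 0, 29.3% without control library 1 and 32.6% without all of these.

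Features of high level were lower in obese than in control hearts on the whole when control library 1 was included. Of the 162 features whose mean FPKM was 1000 or more, 16 were higher in obese hearts and the median difference was -0.23; of the 894 between 100 and 1000, 202 were higher and the median was -0.14. In the 4173 features between 3 and 10 the median was 0.028. Control library 1 held the highest of the 4 control values in 83.3% of the features of at least 1000, 76.6% of those between 100 and 1000, and 28.3% of those under 3. Without it, 58 of the 162 features were higher in obese hearts with a median of -0.020, and 501 of the 894 with a median of 0.014. Without the libraries numbered 0 but with control library 1, the medians of these classes were -0.29 and -0.18. Without all of these libraries, 52 of the 162 were higher with a median of -0.046, and 431 of the 894 with a median of -0.0055. Most features of at least 1000 were thus lower in obese hearts also without control library 1, by a smaller median. Control library 1 also had the lowest relative depth of the 6 libraries of these groups that could be placed by depth. The part of its depth in this shift was not tested.

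**Figure D4:**
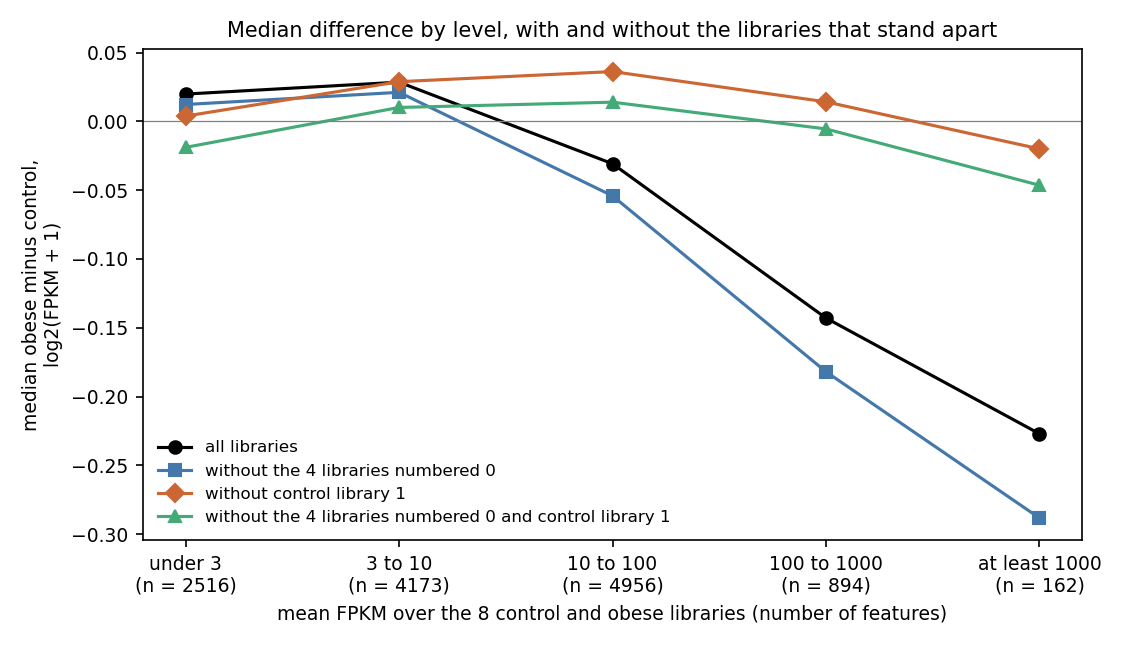
Median difference between obese and control hearts (vertical axis, log2(FPKM + 1)) of features grouped by mean FPKM (horizontal axis), with all libraries and without those that stand apart. With control library 1 the median goes to -0.23 and -0.29 at the highest levels; without it the medians lie between -0.05 and 0.04.

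With all libraries, control hearts differed more among themselves than obese hearts did. The median over features of the within-group SD of log2(FPKM + 1) was 0.301 in control and 0.167 in obese hearts, with 0.162 in BPA and 0.161 in ObBPA hearts. The SD was larger in control for 79.4% of features, or 72.6% without control library 1 and obese library 0 but with control library 0 kept. The median SD was 0.193 in control without library 1 and 0.262 without library 0. In obese hearts it was 0.109 without library 0, against 0.168 to 0.173 without any other library. The last pair of control libraries, 2 and 3, gave 0.0996, against the 0.109 of obese libraries 1 to 3. These last values cannot be set against each other, since the SD of 2 libraries tends to come out lower than that of 3. Whether control had the larger spread without the libraries that stand apart was therefore not settled, with only 2 control libraries remaining. There is 1 value of spread per group, so the difference was not tested.

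Whether overfeeding acted differently after prenatal bisphenol A was tested as the interaction, (ObBPA minus BPA) minus (obese minus control). No feature was called by limma (0 of 12701, or 0%), the smallest adjusted p was 0.998, and 326 features (2.57%) had an unadjusted p under 0.05, 173 positive and 153 negative. The SE of the interaction had a median of 0.220, and its 95% interval lay within a 2-fold change for 85.7% of features. For ENSOARG00000022720 the interaction was -1.55 ± 0.427 (SE), for ENSOARG00000001110 it was -0.49 ± 0.186 and for ENSOARG00000017345 it was 1.01 ± 0.271, each opposite in sign to the difference of obese and control. The adjusted p by limma was 0.998 for each of the 3. For ENSOARG00000025092, listed at 0 in all obese libraries, the interaction was 4.76 ± 1.12 (SE), also opposite in sign. Its adjusted p by limma was 0.998, and it passed the filter only through the control group, as did ENSOARG00000017345. All of the named features were picked by the difference of obese and control. That difference is a part of the interaction, so the opposite sign is fixed in part by the choice. None of these values shows that overfeeding acted alike with and without the exposure.

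The exposed animals give a comparison of overfed and control-fed hearts with no animal in common. Of the 316 features higher in obese than in control hearts at an unadjusted p under 0.05, 174 (55.1%) were higher in ObBPA than in BPA hearts, where 52.1% of all tested features were. Of the 245 lower features, 142 (58.0%) were lower in ObBPA than in BPA hearts, where 47.8% of all tested features were. The median ObBPA minus BPA difference was 0.010 for the first set and -0.029 for the second, against 0.0059 over all features. In ObBPA against BPA, 208 features (1.64%) had an unadjusted p under 0.05; 12 of these were also under it in obese against control with the same direction and 10 with the opposite direction. Features are not independent of each other, and these shares were not tested.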

How the data were processed

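The authors deposited FPKM, with a column for each animal. The submitters' processing notes list FastQC, TopHat2 (version 2.0.9), Bowtie2 (version 2.1.0), Cufflinks, and Cuffdiff (version 2.1.1), on the build Oar_v3.1; their order and settings, and any scaling between libraries, are not given in the sources used here. FPKM values are not counts and carry no depth, so no count model was used and relative depth was read from the step of 1 fragment (bins of 0.01 on the log2 scale), for libraries numbered 1 to 3.

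Values were transformed to log2(FPKM + 1) and the means of all 4 groups (16 libraries) were fitted with limma 3.58.1 (R 4.3.3), the prior variance following the mean level (12 residual and 2.77 prior degrees of freedom). Tests were two-sided, with Benjamini-Hochberg adjustment over the 12701 features that reached an FPKM of 1 in at least 4 of the 8 control and obese libraries. The procedure was tested on simulated data with the same SD in every group and no library that stands apart. That test therefore does not show how the procedure behaves with such libraries or with unequal spreads. By the naming rule, the text gives the IDs of the 2 leading features by p on each side; 22 gene lists could not be used without symbols. The comparison, lists and rule were chosen with earlier results of these data known. The 28 alternatives changed the pseudocount, filter, scaling, variance model, weights, libraries and replicate block. Figures were drawn with matplotlib 3.10.9 in Python 3.11.15.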

Additional observations from a re-analysis of the deposited data

Results flagged for a closer look

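The values of 22 sets of 4 same-group libraries were searched for a library separated from the rest by most of the range, which chance produces in about 1 in 20 sets, and 1 was found. For ENSOARG00000025092 the FPKM of control library 1 was 31.4, against 8.46 to 9.66 in the other 3 control libraries.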

How the results depend on the processing

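Of the 28 alternatives, 4 gave a call in obese against control: library weights gave 5, fitting the control and obese libraries alone gave 4, and leaving out single libraries gave 0 to 1 (1 without control library 3 and 1 without BPA library 1). None of the 27 that allow it gave a call for the interaction. The number of features with an unadjusted p under 0.05 was 953 with no filter, where more features were tested, 1675 with library weights, 283 with the control and obese libraries alone, 905 (7.13% of features) with the replicate block, 880 with a term for the libraries numbered 0, 982 without those libraries, 860 without them and control library 1, and 363 to 1506 without single libraries. The same number for the interaction was 639, 1413, 511 (replicate block), 512, 558, 993 and 250 to 740, the fit of 2 groups giving none. With no filter, 18673 of 20138 features had an interval within a 2-fold change. Groups that did not overlap numbered 448 without control library 1, 1661 without the libraries numbered 0 and 3024 without both, with fewer libraries each time. The causes of these changes in number were not tested. All 4 named features kept their sign under every alternative in which they were tested. Same-numbered control and obese libraries correlated in their deviations from the group means at 0.116, 0.068, 0.033 and 0.088 for numbers 0 to 3, and 7 of 8 libraries correlated best with their own number, a hint from the data and not the design, so the pairing was not used; the replicate block gave no call. Depth limits features of low level most, and the absolute depth is unknown.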
